A study of Mus musculus with 36 samples.

Results

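Wild-type mouse liver was compared at ZT 20, in the dark phase, with ZT 8, in the light phase. ZT, Zeitgeber time, counts hours from lights on, with lights on for 12 h of each day. The comparison takes the 3 arrays titled WT liver at ZT 20 and the 3 titled WT liver at ZT 8, which are 6 of the 36 arrays of the series. All arrays hold total RNA of C57BL/6 mouse liver, and these 6 come from mice labelled WT. The other genotype of the series, TB, is KrasLSL-G12D;p53fl/fl, the lung adenocarcinoma model of the study, and its 6 arrays of the same 2 times serve for comparison. What drives recombination of these alleles is not given in the sources used here, nor are the age and sex of the mice.

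The mammalian clock is a loop in which the activators Clock or Npas2, paired with Arntl (Bmal1), switch on their own repressors, the Per and Cry genes, through E-box sequences. Another loop runs through the nuclear receptors Nr1d1 and Nr1d2 (REV-ERB alpha and beta), which repress Arntl at ROR elements that the ROR receptors activate. A further layer, the PAR bZIP factors Dbp, Tef and Hlf and their competitor Nfil3, acts on D-boxes. In liver, the clock and the feeding rhythm together time glucose, lipid, bile acid and detoxification genes, and mice eat mainly in the dark.

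Each value is the probe set intensity made by the authors, as log2(intensity + 16), and a difference is always the mean at ZT 20 minus the mean at ZT 8 on that scale. A fold is taken from that difference and is thus a ratio of intensity + 16. The offset of 16 makes a difference and its fold smaller than the true change where a gene is dim, also where it is dim at only 1 of the times. A gene is called where its adjusted p from limma, with the spread estimated over all 36 arrays, was under 0.05. The labels number the replicates without stating that they came from separate mice, so a p-value speaks only to the spread among these arrays, part of which may be technical. The medians of the 6 arrays lay between 37.4 and 43.3 intensity units. Correlations across genes ran from 0.979 to 0.989 among the ZT 8 arrays, from 0.979 to 0.985 among the ZT 20 arrays, and from 0.972 to 0.981 between the times. In the probe sets without a gene name, 12 arrays, 1 in each group, stood apart from the other 24 in their deviations from the group means. Replicate 2 of ZT 8 and replicate 2 of ZT 20 were among the 12.

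Clock genes were among the largest differences between night and day in WT liver, with Nr1d1 first of all genes. Arntl, Npas2 and Cry1 were high at ZT 20 and Nr1d1, Dbp and Nr1d2 were high at ZT 8, by between 4.58-fold and 27-fold. Outside the loop, Rgs16 (16.8-fold lower at ZT 20) came second among all genes, and Gpcpd1 also fell. Those that rose most were Cdkn1a, Chka, Mir122, Angptl8, the glycogen-targeting subunit Ppp1r3b, Tubb2a and Ppp1r3c, another such subunit. Of 19 heat shock genes 8 rose, where 0.442% of all genes did.

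Of 22180 genes tested, 344 (1.55%) were called, 98 (0.442%) higher and 246 (1.11%) lower at ZT 20. At an unadjusted p under 0.05 there were 2188. In 343 of the 344 the 3 arrays of one time all lay above the 3 of the other, against 15.8% of all genes. The called genes that were lower were more numerous but moved less, with a median difference of -0.68 against 0.90 for those that were higher. Changes of 2-fold or more were found in 34 genes that rose and 51 that fell, and of 4-fold or more in 8 and 6. The median over all genes was -0.031, with 58.2% of genes below 0. The share of calls that were higher was 28.5%, but 42.6% after quantile normalization (159 higher, 214 lower) and 40.1% after centring each array on its median (97 higher, 145 lower). Without ZT 8 replicate 1 or 3 the calls came to 168 or 150, and without ZT 20 replicate 1, 2 or 3 to 210, 211 or 155. With only the 24 arrays of the larger set, 494 genes were called, 264 of them among the 344. With every one of the 6 arrays left out in turn, 118 genes were called each time, and all 344 kept their sign. Where the arrays of the times do not overlap, leaving an array out cannot change the sign.

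**Figure D1:**
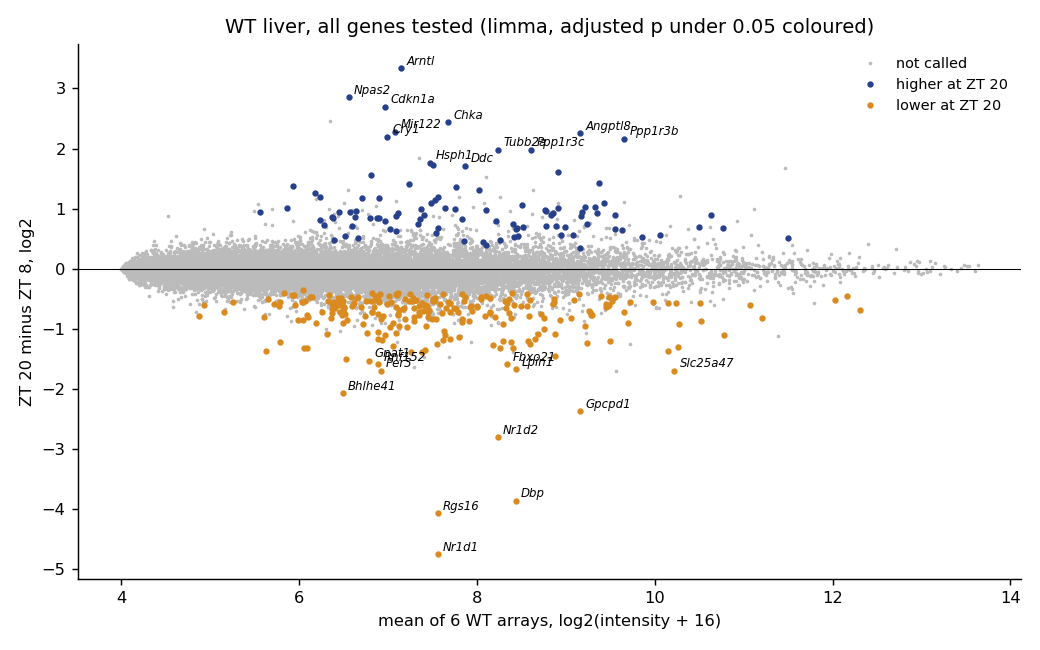
Each point is 1 of 22180 genes, with its mean over the 6 WT arrays on the x axis, in log2(intensity + 16), and its difference between ZT 20 and ZT 8 in log2 on the y axis. The 98 genes called higher at ZT 20 are blue, the 246 called lower are orange, and the 12 largest in each direction are named, from Nr1d1 at -4.75 to Arntl at 3.33.

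Among the activators of the clock, 3 of the 4 measured genes rose at ZT 20 and none fell, where 0.442% of all genes rose and 1.11% fell. Arntl, the partner of both Clock and Npas2, stood at 5.40, 5.54 and 5.49 at ZT 8 and 8.77, 8.86 and 8.80 at ZT 20. Arrays of one time lay in a narrow band, and the times were far apart: Arntl was 10.1-fold higher at ZT 20 (difference 3.33, SE 0.19, adjusted p = 1.2e-12). Npas2, the paralog of Clock that can take its place, stood at 5.17, 5.21 and 5.01 at ZT 8 and 7.76, 8.34 and 7.85 at ZT 20, again without overlap (difference 2.85, SE 0.26, adjusted p = 2.2e-08). Clock moved less, from 8.87, 8.67 and 8.90 at ZT 8 to 9.91, 9.91 and 9.71 at ZT 20 (difference 1.03, SE 0.14, adjusted p = 4.7e-05). The receptor Rora, which activates through ROR elements, had a difference of 0.02 (SE 0.12, adjusted p = 1), and its arrays overlapped, from 8.54 to 8.75 at ZT 8 and from 8.67 to 8.72 at ZT 20. Over the WT day, the mean of Arntl was lowest at ZT 8 (5.48), still 5.87 at ZT 12, and near its highest from ZT 20 (8.81) to ZT 0 (8.83).

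Of the 9 repressors measured, 6 fell and 1, Cry1, rose at ZT 20, where 1.11% of all genes fell and 0.442% rose. Nr1d1 (REV-ERB alpha), the heme-binding repressor of Arntl, was at 10.07, 9.46 and 10.27 at ZT 8 and 5.58, 4.95 and 5.02 at ZT 20. This was the largest difference of all genes, 27-fold (difference -4.75, SE 0.37, adjusted p = 1e-09), and replicate 2 of ZT 8 was the lowest of its 3 arrays. The mean intensity of Nr1d1 was 989.7 at ZT 8 and 21.03 at ZT 20, near the offset of 16, which makes that fold smaller. Nr1d2, its close relative, was at 9.64, 9.54 and 9.73 at ZT 8 and 6.98, 6.84 and 6.66 at ZT 20 (difference -2.81, SE 0.28, adjusted p = 2.5e-07). Bhlhe41 (DEC2), which competes for E-boxes, was at 7.70, 6.76 and 8.12 at ZT 8 and 5.50, 5.58 and 5.27 at ZT 20 (difference -2.07, SE 0.32, adjusted p = 0.00028), and Bhlhe41 replicate 2 at ZT 8 was again the lowest array of that time. Its paralog Bhlhe40 (DEC1) was not called: its arrays were 9.98, 9.81 and 10.14 at ZT 8 and 9.18, 10.02 and 9.38 at ZT 20, and replicate 2 of ZT 20 lay inside the range of ZT 8 (difference -0.45, SE 0.21, adjusted p = 0.48).

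The Period and Cryptochrome genes did not move as 1 group. Per3 fell, with arrays at 7.70, 7.75 and 7.86 at ZT 8 and 6.09, 6.14 and 5.97 at ZT 20 (difference -1.70, SE 0.21, adjusted p = 7.4e-06). Per1 was at 8.01, 8.04 and 8.32 at ZT 8 and 7.25, 7.25 and 8.03 at ZT 20 and was not called (difference -0.61, SE 0.34, adjusted p = 0.60). Replicate 3 of ZT 20 stood inside the range of ZT 8 for Per1, while the other 2 arrays of ZT 20 lay below it. Ciart (CHRONO), which represses the activators, was at 7.07, 7.22 and 7.56 at ZT 8 and 5.46, 5.87 and 5.98 at ZT 20 (difference -1.51, SE 0.24, adjusted p = 0.00036). Cry1, a repressor too, went the other way, from 5.97, 6.08 and 5.64 at ZT 8 to 7.88, 8.31 and 8.07 at ZT 20, a 4.58-fold rise (difference 2.19, SE 0.18, adjusted p = 2.1e-09). Its paralog Cry2 was at 7.73, 7.35 and 8.17 at ZT 8 and 7.25, 7.13 and 6.99 at ZT 20 (difference -0.63, SE 0.17, adjusted p = 0.049), just inside the threshold. Cry2 was called in 8 of 21 alternative settings, and not without ZT 8 replicates 1 or 3 or ZT 20 replicates 1, 2 or 3 (adjusted p 0.072 to 0.46).

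**Figure D2:**
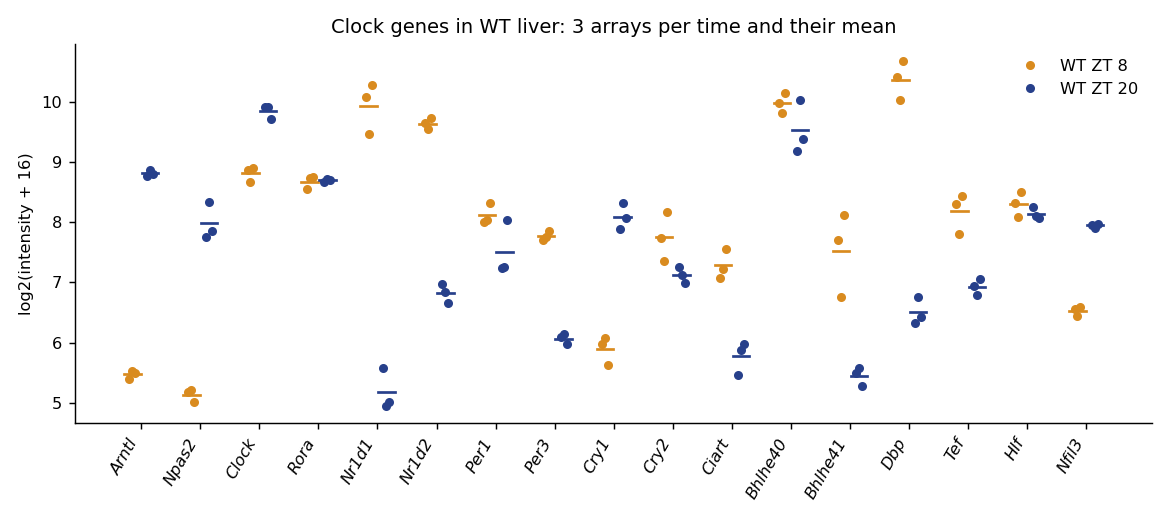
Each point is 1 array, in log2(intensity + 16) on the y axis, of the 17 clock genes on the x axis, with ZT 8 in orange and ZT 20 in blue and a bar at the mean of 3 arrays. Arntl, Npas2, Clock, Cry1 and Nfil3 lie higher at ZT 20, Rora, Hlf, Per1 and Bhlhe40 overlap, and the other 8 lie lower.

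In the D-box layer, Dbp and Tef fell and Nfil3 rose. Dbp, a PAR bZIP factor that the clock drives directly, was at 10.40, 10.03 and 10.67 at ZT 8 and 6.32, 6.76 and 6.43 at ZT 20, which is 14.5-fold lower at ZT 20 (difference -3.86, SE 0.24, adjusted p = 5.6e-12). Tef was at 8.30, 7.81 and 8.43 at ZT 8 and 6.94, 6.79 and 7.06 at ZT 20 (difference -1.25, SE 0.20, adjusted p = 0.00048). Hlf, the third PAR factor, overlapped between the times at 8.32, 8.09 and 8.51 at ZT 8 and 8.25, 8.11 and 8.07 at ZT 20 and was not called (difference -0.17, SE 0.14, adjusted p = 0.85). Nfil3 (E4BP4), which binds the same sequences as a repressor, was at 6.56, 6.44 and 6.60 at ZT 8 and 7.96, 7.91 and 7.97 at ZT 20, with the arrays of ZT 8 within 0.16 of each other (difference 1.42, SE 0.17, adjusted p = 6.7e-06). Nfil3 was thus 2.67-fold higher and Dbp 14.5-fold lower at ZT 20 than at ZT 8.

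The promoters of several of these genes hold the letters through which the loop is known to work, and are shown because they place the members that were high at ZT 8 and at ZT 20 beside those letters. The sequences are from RefSeq, assembly GRCm38.p6, and run 5′ to 3′ on the strand of the gene, with the motif in capitals. Positions are counted from the annotated start, with no position 0, and each window searched had 250 bases before and 50 bases after the start. E-boxes (CACGTG) stood in the windows of Ciart, Bhlhe41 and Tef, which fell, of Cry1, which rose, and of Per1, which was not called. Ciart, at chr3:95882237-95882374 (- strand), held 3, at -116, -58 and -44. Bhlhe41, at chr6:145865538-145865603 (- strand), held 1 at -153, Tef, at chr15:81802516-81802581 (+ strand), 1 at -127, and Cry1, at chr10:85185079-85185144 (- strand), 1 at -60. That of Per1, not printed, is at -166.
Ciart: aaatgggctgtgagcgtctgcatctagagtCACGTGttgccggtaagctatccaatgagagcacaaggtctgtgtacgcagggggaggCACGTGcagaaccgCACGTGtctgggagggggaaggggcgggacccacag
Bhlhe41: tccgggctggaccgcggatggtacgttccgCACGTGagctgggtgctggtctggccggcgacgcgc
Tef: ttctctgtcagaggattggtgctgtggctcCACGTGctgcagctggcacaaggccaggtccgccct
Cry1: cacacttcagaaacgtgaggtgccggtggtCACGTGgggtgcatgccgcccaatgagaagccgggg

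D-boxes (TTATGNAA) stood in the windows of Per3, at -205 and -158, and of Per1, at -24, and ROR elements (TAGGTCA or TGGGTCA) in those of Nfil3 and Arntl. The Per3 stretch is chr4:151044786-151044900 (- strand), and both of its D-boxes have the same letters. Nfil3, at chr13:52981040-52981081 (- strand), holds its element at -12 on the opposite strand, where it reads TGACCTA in the direction of the gene. Arntl, at chr7:113207530-113207558 (+ strand), holds it at position 31 after the start. Both of these clock genes with the ROR element were higher at ZT 20, when Nr1d1 and Nr1d2 were lower. A link between these differences was not tested. Among called genes with a window, the element was found for 8 of 79 that were higher and 10 of 201 that were lower.
Per3: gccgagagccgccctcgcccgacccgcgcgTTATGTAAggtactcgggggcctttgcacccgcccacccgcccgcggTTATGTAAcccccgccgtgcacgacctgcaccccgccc
Nfil3: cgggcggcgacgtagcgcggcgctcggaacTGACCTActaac
Arntl: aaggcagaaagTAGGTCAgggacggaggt

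None of the 4 motifs was found in the supplied windows of Npas2, Clock, Nr1d1, Nr1d2, Dbp, Cry2, Rora or Hlf, which says only that these letters are not in these windows. Over all genes, an E-box on either strand stood in 7.15% of 32851 windows, a ROR element in 6.45%, a D-box in 3.38% and the heat shock pair GAANNTTC in 7.86%. By gene, where any window of a gene counts, an E-box was found for 16.9% of the 201 genes called lower that had a window, for 10.1% of the 79 called higher and for 9.19% of all 16990 tested genes with one. A ROR element was found for 4.98%, 10.1% and 6.83% in the same order, and a D-box for 3.48%, 6.33% and 3.72%. These are shares without a test, and a match is a description of letters, not of binding.

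Downstream of the clock, 14 of 24 listed output genes of liver were called, where 1.55% of all genes were. Of these, 6 were higher and 8 lower at ZT 20, and the median of the list was 0.19. Ciart, given above among the repressors, is counted here again. The list came with both phases in it and was chosen with earlier results of these data known. Neither its count of calls nor its balance says anything by itself. Chka, choline kinase alpha, the first step from choline to phosphatidylcholine, was at 6.67, 6.41 and 6.29 at ZT 8 and 8.88, 8.87 and 8.94 at ZT 20 (difference 2.44, SE 0.15, adjusted p = 5.6e-12). Its arrays at ZT 20 lay within 0.069 of each other, 5.42-fold above ZT 8. Tubb2a, a beta tubulin, was at 6.93, 7.65 and 7.17 at ZT 8 and 9.06, 9.31 and 9.32 at ZT 20 (difference 1.98, SE 0.25, adjusted p = 1.5e-05). Lonrf3, a ring finger protein, was at 5.50, 5.49 and 5.68 at ZT 8 and 6.72, 7.09 and 6.62 at ZT 20 (difference 1.25, SE 0.16, adjusted p = 1.7e-05). Tsc22d3, also a glucocorticoid target, rose (1.36, adjusted p = 0.028), and Leo1 (0.79, adjusted p = 0.00053), of the PAF1 transcription complex, and Grk5 (1.20, adjusted p = 0.0016), a receptor kinase, also rose.

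The genes of this list that fell were led by Rgs16, a brake on G protein signalling, at 9.60, 8.51 and 10.66 at ZT 8 and 5.96, 5.89 and 4.71 at ZT 20. Its arrays were widely spread within each time, with the lowest array of ZT 8 still 2.55 above the highest of ZT 20 (difference -4.07, SE 0.65, adjusted p = 0.00037). Wee1, the kinase that holds cells before mitosis and a textbook E-box target, was at 7.66, 7.53 and 7.92 at ZT 8 and 6.31, 6.72 and 6.19 at ZT 20 (difference -1.29, SE 0.20, adjusted p = 0.00032). Usp2 (-1.20, adjusted p = 0.001), a deubiquitinase, Upp2 (-1.30, adjusted p = 0.0078), a uridine phosphorylase, Klf10 (-1.16, adjusted p = 0.00044), a zinc finger factor, Klf9 (-0.82, adjusted p = 0.032) and Pnpla2 (-0.79, adjusted p = 0.021), the fat-droplet lipase ATGL, fell as well. Pnpla2 was called in 14 of 21 alternative settings, and not without ZT 8 replicates 1 or 3 or ZT 20 replicates 1, 2 or 3 (adjusted p 0.058 to 0.18). Upp2 was called in 19 of 21 alternative settings, and not without ZT 20 replicate 2 (adjusted p 0.086). Elovl3, a fatty acid elongase, was at 10.65, 10.53 and 10.70 at ZT 8 and 12.33, 12.42 and 12.14 at ZT 20, with its lowest array of ZT 20 1.44 above the highest of ZT 8. It was not called (difference 1.67, SE 0.98, adjusted p = 0.65) in the fit that shares 1 spread over all 12 groups, but was called with only the 18 WT arrays (adjusted p = 0.015) and with only the 6 compared (adjusted p = 0.00016).

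Of 19 heat shock genes measured, 8 rose at ZT 20 and none fell, where 0.442% of all genes rose, and 17 had an unadjusted p under 0.05, where 9.86% of all genes did. The median difference of the list was 0.67, against -0.031 over all genes, and 18 of the 19 were above 0. It stayed between 0.59 and 0.73 with each of the 6 arrays left out, and was 0.69 and 0.70 after quantile normalization and median centring. The number called higher was 5 without replicate 2 of ZT 8, 5 without replicate 3 of ZT 8 and 5 without replicate 3 of ZT 20, between 6 and 7 without each of the other 3 arrays, and 13 with array weights. Hsph1, the HSP110 exchange factor of HSP70, was at 6.76, 6.58 and 6.43 at ZT 8 and 7.96, 8.58 and 8.53 at ZT 20 (difference 1.76, SE 0.30, adjusted p = 0.00086). Hsp90aa1, the inducible HSP90, was at 8.14, 8.35 and 7.82 at ZT 8 and 9.69, 9.74 and 9.71 at ZT 20, with the arrays of ZT 20 within 0.050 of each other (difference 1.61, SE 0.27, adjusted p = 0.00055). Both were 3-fold or more above ZT 8.

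Among the co-chaperones, Stip1, Chordc1 and Fkbp4 rose. Stip1 (HOP), which hands clients from HSP70 to HSP90, was at 8.04, 7.96 and 7.93 at ZT 8 and 8.90, 9.09 and 9.12 at ZT 20 (difference 1.06, SE 0.17, adjusted p = 0.00052). Chordc1 was at 7.82, 7.45 and 7.59 at ZT 8 and 8.55, 8.61 and 8.62 at ZT 20 (difference 0.97, SE 0.18, adjusted p = 0.0019), and Fkbp4, the immunophilin of steroid receptor complexes, at 8.81, 8.69 and 8.61 at ZT 8 and 9.57, 9.59 and 9.79 at ZT 20 (difference 0.95, SE 0.18, adjusted p = 0.0026). A further 3 members, named after their values were seen, were called: Hspa4l (0.83, adjusted p = 0.035), Hspa8 (0.51, adjusted p = 0.023), the constitutive HSP70, and Ahsa1 (0.47, adjusted p = 0.049), which drives the HSP90 ATPase. Hspa4l was called in 13 of 21 alternative settings, and not without ZT 8 replicates 1, 2 or 3 or ZT 20 replicates 1, 2 or 3 (adjusted p 0.085 to 0.18). Hspa8 was called in 13 of 21 alternative settings, and not without ZT 8 replicates 2 or 3 or ZT 20 replicates 2 or 3 (adjusted p 0.087 to 0.16). Ahsa1 was called in 8 of 21 alternative settings, and not without ZT 8 replicates 2 or 3 or ZT 20 replicates 1, 2 or 3 (adjusted p 0.071 to 0.29). The stress-inducible Hspa1a (0.67, adjusted p = 0.17), Hspa1b (0.91, adjusted p = 0.23) and Hspb1 (0.98, adjusted p = 0.10) were not called. The 1 member below 0 was Cirbp, the cold-inducible RNA-binding protein, at 6.48, 5.93 and 6.60 at ZT 8 and 5.50, 5.39 and 5.54 at ZT 20: its arrays did not overlap, but the call was missed (difference -0.86, SE 0.24, adjusted p = 0.064). In some settings 1 member of the list was called lower, among them only the 18 WT arrays, only the 6 compared and the array set as a block. In others, such as quantile normalization and median centring, none was.

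The heat shock pair is an inverted repeat of the GAA unit that HSF1 binds. It was found for 3 of the 6 called heat shock genes with a supplied window (Hsph1, Fkbp4 and Chordc1, but not Stip1, Ahsa1 or Hspa4l) and for 6 of the 11 that were not called (Hspa1a, Hspa1b, Hspb1, Hspe1, Hspd1 and Bag3). A pair of co-chaperone genes is shown as an example of its letters. Fkbp4, at chr6:128438770-128438837 (- strand), holds 1 at -151. Chordc1, at chr9:18292257-18292286 (+ strand), holds 2, at -4 and at 7 after the start. The pair was found for 11.4% of the genes called higher, 3.48% of those called lower and 8.18% of all tested genes with a window.
Fkbp4: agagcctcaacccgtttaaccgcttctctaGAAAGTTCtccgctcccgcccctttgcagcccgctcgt
Chordc1: caaccgGAACGTTCggGAAAATTCctgaag

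Chaperones of the endoplasmic reticulum were not called in WT. Of 26 genes of the unfolded protein and integrated stress response, limma called none. However, 9 had an unadjusted p under 0.05, where 9.86% of all genes did. The arrays of ZT 20 all lay above those of ZT 8 in 9 and all below in 3, against 5.4% and 10.4% of all genes. In TB liver, limma called Creld2, Hspa5 and Manf higher and Chac1 lower at ZT 20. The median was 0.16. The smallest p-values were those of Creld2, at 7.76, 7.76 and 7.49 at ZT 8 and 8.28, 9.28 and 9.02 at ZT 20 (difference 1.19, SE 0.37, adjusted p = 0.13) and of Hspa5 (BiP), the master chaperone of the reticulum, at 10.41, 10.06 and 10.36 at ZT 8 and 10.73, 10.92 and 11.26 at ZT 20 (difference 0.69, SE 0.22, adjusted p = 0.14). In both, all 3 arrays of ZT 20 lay above those of ZT 8. By size, Manf (0.78, adjusted p = 0.23) and Hyou1 (0.71, adjusted p = 0.29) stood between them.

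In glucose metabolism, the genes that steer glycogen moved in both directions while gluconeogenesis gave no call. Ppp1r3b, the main subunit that brings protein phosphatase 1 to liver glycogen and activates its synthesis, was at 8.21, 9.06 and 8.46 at ZT 8 and 10.88, 10.81 and 10.53 at ZT 20, 4.48-fold higher at ZT 20 (difference 2.17, SE 0.33, adjusted p = 0.00028). Ppp1r3c, a second such subunit, was at 8.08, 6.94 and 7.85 at ZT 8 and 10.11, 9.44 and 9.24 at ZT 20 (difference 1.98, SE 0.38, adjusted p = 0.0028). Gys2, the liver glycogen synthase itself, went down, from 11.39, 11.13 and 11.47 at ZT 8 to 10.12, 10.47 and 10.08 at ZT 20 (difference -1.11, SE 0.20, adjusted p = 0.0018). Slc2a2 (GLUT2), the glucose transporter of hepatocytes, was at 11.65, 11.40 and 11.82 at ZT 8 and 10.97, 11.24 and 10.17 at ZT 20 (difference -0.83, SE 0.21, adjusted p = 0.033), with replicate 3 of ZT 20 far below the other 2. Ppp1r3c was called in 20 of 21 alternative settings, the exception being the fit with only the larger set. Slc2a2 was called in 11 of 21 alternative settings, and not without ZT 8 replicates 1 or 3 or ZT 20 replicates 1 or 3 (adjusted p 0.051 to 0.37). Over the 17 genes of glycolysis and glycogen, 2 rose and 2 fell, with a median of -0.032, where 0.442% of all genes rose and 1.11% fell.

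Pdk4, a kinase that inhibits pyruvate dehydrogenase, had arrays of 6.40, 5.96 and 6.92 at ZT 8 and 8.41, 8.68 and 7.72 at ZT 20 without overlap, and missed the threshold (difference 1.84, SE 0.50, adjusted p = 0.059). Of 15 genes of gluconeogenesis, limma called none, 2 had an unadjusted p under 0.05, and the median was -0.15. Pck1, the gatekeeping carboxykinase, was at 11.96, 11.84 and 12.03 at ZT 8 and 10.95, 10.18 and 11.37 at ZT 20, again without overlap (difference -1.11, SE 0.35, adjusted p = 0.13). G6pc, the last step of glucose release, had a difference of 0.16, adjusted p = 0.98. The insulin and IGF axis, 20 genes, also gave no call by limma, with 3 genes at an unadjusted p under 0.05. Insr, the insulin receptor, was at 9.31, 9.18 and 9.30 at ZT 8 and 8.93, 8.89 and 8.85 at ZT 20 (difference -0.37, SE 0.11, adjusted p = 0.10).

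In lipid metabolism, the lipins fell and a few genes of triglyceride handling rose. Lpin1, the phosphatidate phosphatase that also acts as a coactivator, was at 9.11, 9.19 and 9.53 at ZT 8 and 7.78, 8.14 and 6.89 at ZT 20 (difference -1.67, SE 0.34, adjusted p = 0.0048), and Lpin2 at 9.81, 9.82 and 9.95 at ZT 8 and 8.78, 8.92 and 8.18 at ZT 20 (difference -1.23, SE 0.20, adjusted p = 0.0006). Angptl8, the feeding-induced hepatokine that restrains lipoprotein lipase, was at 8.14, 7.78 and 8.18 at ZT 8 and 9.92, 10.26 and 10.69 at ZT 20, 4.77-fold higher (difference 2.25, SE 0.44, adjusted p = 0.0039). Insig2, the anchor that retains SREBP precursors, was at 8.51, 8.52 and 9.06 at ZT 8 and 10.00, 9.85 and 9.33 at ZT 20 (difference 1.03, SE 0.22, adjusted p = 0.0078). Agpat2, an acyltransferase of triglyceride synthesis, was at 10.03, 10.11 and 10.31 at ZT 8 and 10.93, 10.82 and 10.80 at ZT 20 (difference 0.70, SE 0.17, adjusted p = 0.022). Lpin1 was called in 20 of 21 alternative settings, and not without ZT 20 replicate 3 (adjusted p 0.086). Insig2 was called in 17 of 21 alternative settings, and not without ZT 8 replicate 1 or ZT 20 replicates 1 or 2 (adjusted p 0.0503 to 0.069). Agpat2 was called in 16 of 21 alternative settings, and not without ZT 8 replicates 1 or 2 or ZT 20 replicates 1, 2 or 3 (adjusted p 0.058 to 0.14). The 23 genes of fatty acid synthesis gave 2 higher and 2 lower with a median of 0.0045, where 0.442% of all genes rose and 1.11% fell. The fatty acid synthase gene Fasn had arrays of 10.66, 11.13 and 11.35 at ZT 8 and 10.94, 11.58 and 10.87 at ZT 20, overlapping (difference 0.08, SE 0.22, adjusted p = 0.99). Of 19 lipoprotein genes, Angptl8 alone was called, where 1.55% of all genes were.

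Of 29 genes of fat oxidation, 2 fell and none rose, with a median of -0.13, where 1.11% of all genes fell and 0.442% rose. Cpt1a, which commits fatty acids to the mitochondrion, was at 11.02, 10.76 and 11.10 at ZT 8 and 10.14, 10.02 and 10.09 at ZT 20 (difference -0.87, SE 0.19, adjusted p = 0.012). Ppara, the nuclear receptor of fasting, was at 9.74, 9.41 and 9.88 at ZT 8 and 9.20, 8.98 and 8.55 at ZT 20 (difference -0.77, SE 0.18, adjusted p = 0.016). Cpt1a was called in 17 of 21 alternative settings, and not without ZT 8 replicates 1 or 3 or ZT 20 replicates 2 or 3 (adjusted p 0.057 to 0.10). Ppara was called in 15 of 21 alternative settings, and not without ZT 8 replicates 1 or 3 or ZT 20 replicate 3 (adjusted p 0.09 to 0.19). Among targets of that receptor that were not called, Angptl4 had a difference of -1.22, adjusted p = 0.32 and Fgf21 of -0.01, adjusted p = 1. Cholesterol synthesis, 17 genes, gave no call by limma and 3 genes at an unadjusted p under 0.05, with a median of 0.14.

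In bile formation, 3 exporters fell and 1 conjugating enzyme rose at ZT 20. Abcg5 and Abcg8, which together form the transporter of sterols, both fell. Abcg5 was at 9.20, 9.11 and 9.35 at ZT 8 and 7.81, 7.98 and 8.11 at ZT 20 (difference -1.26, SE 0.24, adjusted p = 0.0026), and Abcg8 at 9.67, 9.30 and 9.82 at ZT 8 and 8.16, 7.64 and 8.65 at ZT 20 (difference -1.45, SE 0.34, adjusted p = 0.019). Abcc2 (MRP2), the exporter of conjugates such as bilirubin glucuronide, was at 11.41, 11.28 and 11.41 at ZT 8 and 10.84, 10.79 and 10.67 at ZT 20 (difference -0.60, SE 0.10, adjusted p = 0.0006). Its arrays at ZT 20 lay within 0.17 of each other. Baat, which joins bile acids to taurine and glycine, rose, from 9.66, 9.66 and 9.46 at ZT 8 to 10.21, 10.21 and 9.94 at ZT 20 (difference 0.53, SE 0.11, adjusted p = 0.0091). Abcg8 was called in 16 of 21 alternative settings, and not without ZT 8 replicates 1 or 3 or ZT 20 replicates 1 or 2 (adjusted p 0.061 to 0.15). Baat was called in 15 of 21 alternative settings, and not without ZT 8 replicate 3 or ZT 20 replicates 1 or 2 (adjusted p 0.061 to 0.10). Of the 22 genes of bile acid synthesis and transport these 4 were called, where 1.55% of all genes were. Cyp7a1, the rate-limiting enzyme of bile acid synthesis, was not (0.66, adjusted p = 0.46), nor was Abcb11, the bile salt pump (-0.02, adjusted p = 1).

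In autophagy, 2 of 24 genes fell, none rose, and 19 were below 0, where 1.11% of all genes fell and 58.2% were below 0. Ulk1, the kinase that starts autophagosome formation, was at 9.11, 8.92 and 9.15 at ZT 8 and 7.71, 7.87 and 7.66 at ZT 20, 2.48-fold lower at ZT 20 (difference -1.31, SE 0.17, adjusted p = 1.8e-05). Gabarapl1, a membrane adaptor of the ATG8 family, was at 10.10, 10.17 and 10.17 at ZT 8 and 9.23, 9.11 and 9.40 at ZT 20 (difference -0.90, SE 0.21, adjusted p = 0.021). Gabarapl1 was called in 14 of 21 alternative settings, and not without ZT 8 replicates 1, 2 or 3 or ZT 20 replicates 1 or 2 (adjusted p 0.052 to 0.11). The next by size was Atg14 (-0.55, adjusted p = 0.068), and the list's median was -0.077.

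Of 30 genes of the urea cycle and amino acid breakdown, 2 rose and 2 fell, where 0.442% of all genes rose and 1.11% fell. Ddc, the decarboxylase that makes dopamine and serotonin, was at 7.29, 6.84 and 6.90 at ZT 8 and 8.73, 8.69 and 8.77 at ZT 20, with the arrays of ZT 20 within 0.077 of each other (difference 1.72, SE 0.27, adjusted p = 0.00036). Gldc, of the glycine cleavage system, was at 8.64, 9.02 and 8.92 at ZT 8 and 9.54, 9.42 and 9.87 at ZT 20 (difference 0.75, SE 0.16, adjusted p = 0.0077). The amino acid carriers Slc38a4, at 12.31, 12.51 and 12.36 at ZT 8 and 11.91, 11.89 and 12.01 at ZT 20 (difference -0.46, SE 0.10, adjusted p = 0.0087), and Slc38a2, at 9.78, 9.72 and 9.39 at ZT 8 and 8.73, 8.99 and 9.02 at ZT 20 (difference -0.71, SE 0.17, adjusted p = 0.022), fell. Gldc was called in 18 of 21 alternative settings, and not without ZT 8 replicate 1 or ZT 20 replicate 3 (adjusted p 0.09 to 0.10). Slc38a4 was called in 17 of 21 alternative settings, and not without ZT 20 replicate 2 (adjusted p 0.0503). Slc38a2 was called in 14 of 21 alternative settings, and not without ZT 8 replicates 1 or 2 or ZT 20 replicates 1, 2 or 3 (adjusted p 0.0511 to 0.15). Odc1, the first enzyme of polyamine synthesis, was the only call among 20 genes of polyamines and the methyl cycle, where 1.55% of all genes were called. It was at 7.81, 7.67 and 7.96 at ZT 8 and 8.42, 8.46 and 8.97 at ZT 20 (difference 0.80, SE 0.19, adjusted p = 0.027). Odc1 was called in 15 of 21 alternative settings, and not without ZT 8 replicates 1, 2 or 3 or ZT 20 replicate 3 (adjusted p 0.06 to 0.25).

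Of 15 glucocorticoid targets, 2 rose and 1 fell, where 0.442% of all genes rose and 1.11% fell. Cdkn1a (p21), a brake on the cell cycle, stood at 5.66, 5.39 and 5.83 at ZT 8 and 8.67, 8.05 and 8.23 at ZT 20, 6.46-fold higher at ZT 20 (difference 2.69, SE 0.37, adjusted p = 3.8e-05). Tsc22d3 (GILZ), a mediator of the anti-inflammatory action of the hormone, was at 7.16, 6.76 and 7.34 at ZT 8 and 8.95, 7.98 and 8.40 at ZT 20 (difference 1.36, SE 0.33, adjusted p = 0.028), and Klf9 at 9.63, 9.17 and 9.60 at ZT 8 and 8.75, 8.55 and 8.64 at ZT 20 (difference -0.82, SE 0.20, adjusted p = 0.032). Tsc22d3 was called in 15 of 21 alternative settings, and not without ZT 8 replicates 1, 2 or 3 or ZT 20 replicates 1 or 3 (adjusted p 0.061 to 0.20). Klf9 was called in 13 of 21 alternative settings, and not without ZT 8 replicates 1 or 3 or ZT 20 replicates 1, 2 or 3 (adjusted p 0.064 to 0.19). Cdkn1a and Wee1, which moved in opposite directions, were the only calls among 24 cell cycle genes, where 1.55% of all genes were called. The median of that list was -0.086.

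The remaining genes of the 12 largest in each direction belong to no common list. The probe set annotated as Mir122, the gene of the abundant liver microRNA, was at 6.27, 5.95 and 5.59 at ZT 8 and 7.83, 8.12 and 8.72 at ZT 20, 4.87-fold higher at ZT 20 (difference 2.28, SE 0.36, adjusted p = 0.00037). Which form of that RNA the probe set measures is not given in the sources used here. Gpcpd1, a glycerophosphocholine phosphodiesterase, was at 10.53, 9.93 and 10.58 at ZT 8 and 8.67, 7.64 and 7.61 at ZT 20 (difference -2.38, SE 0.32, adjusted p = 3.7e-05). Slc25a47, a mitochondrial carrier of hepatocytes, was at 11.04, 10.69 and 11.46 at ZT 8 and 9.98, 9.47 and 8.66 at ZT 20 (difference -1.69, SE 0.32, adjusted p = 0.0027). Rnf152, a ubiquitin ligase of the lysosome, was at 8.06, 7.20 and 7.80 at ZT 8 and 6.45, 6.53 and 5.30 at ZT 20 (difference -1.59, SE 0.26, adjusted p = 0.00055), and Fbxo21, an F-box protein, at 9.65, 8.43 and 9.34 at ZT 8 and 7.65, 7.50 and 7.50 at ZT 20 (difference -1.59, SE 0.25, adjusted p = 0.00033). Gnat1, the transducin of rods, was at 7.48, 7.64 and 7.53 at ZT 8 and 5.58, 6.10 and 6.37 at ZT 20 (difference -1.53, SE 0.37, adjusted p = 0.028). Slc25a47 was called in 20 of 21 alternative settings, and not without ZT 20 replicate 3 (adjusted p 0.057). Gnat1 was called in 14 of 21 alternative settings, and not without ZT 8 replicates 1, 2 or 3 or ZT 20 replicates 1 or 2 (adjusted p 0.071 to 0.17).

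Among called genes picked after their values were seen, Clpx, the unfoldase of the mitochondrial matrix protease, rose (1.43, adjusted p = 1.8e-05), as did Ppard, the delta form of the fatty acid receptors (1.57, adjusted p = 0.00016), Rcan1, an inhibitor of calcineurin (1.32, adjusted p = 0.0034), Nedd4l, a ubiquitin ligase of ion channels (0.98, adjusted p = 3.8e-05), and Leap2, the liver peptide that blocks the ghrelin receptor (1.19, adjusted p = 0.024). Ppargc1b, a coactivator of mitochondrial genes (-1.39, adjusted p = 0.00093), Slc7a2, an arginine carrier (-1.37, adjusted p = 0.0071), Npc1, which exports cholesterol from lysosomes (-1.21, adjusted p = 1.5e-05), and Coq10b, a coenzyme Q chaperone (-1.17, adjusted p = 0.00033), fell. Leap2 was called in 13 of 21 alternative settings, and not without ZT 8 replicates 1, 2 or 3 or ZT 20 replicates 1, 2 or 3 (adjusted p 0.055 to 0.13). Rcan1 was called in 20 of 21 alternative settings, and not without ZT 8 replicate 1 (adjusted p 0.058). Slc7a2 was called in 18 of 21 alternative settings, and not without ZT 20 replicates 1 or 2 (adjusted p 0.0511 to 0.071).

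In 17 of the pathway lists limma called no gene. Together they hold 357 genes, of which 43 had an unadjusted p under 0.05, against 9.86% of all genes. Beside those already given, they cover acute phase proteins (26 genes, median 0.040), immediate early genes (23, median 0.086), cytochromes P450 of drug metabolism (30, median -0.043), phase II conjugation (25, median -0.020), NRF2 targets (18, median 0.014), the secretory pathway (29, median 0.038), the proteasome (29, median 0.018), ribosomal proteins (22, median 0.048), mitochondrial respiration (29, median 0.047) and ribosome biogenesis (23, median 0.10). Genes with a sex bias in liver gave none either, with medians of 0.085 for 16 male-biased and 0.067 for 17 female-biased genes. Myc, which drives ribosome biogenesis, was at 7.70, 7.67 and 7.76 at ZT 8 and 5.74, 6.89 and 6.86 at ZT 20, without overlap, and was not called (difference -1.21, SE 0.35, adjusted p = 0.078).

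**Figure D3:**
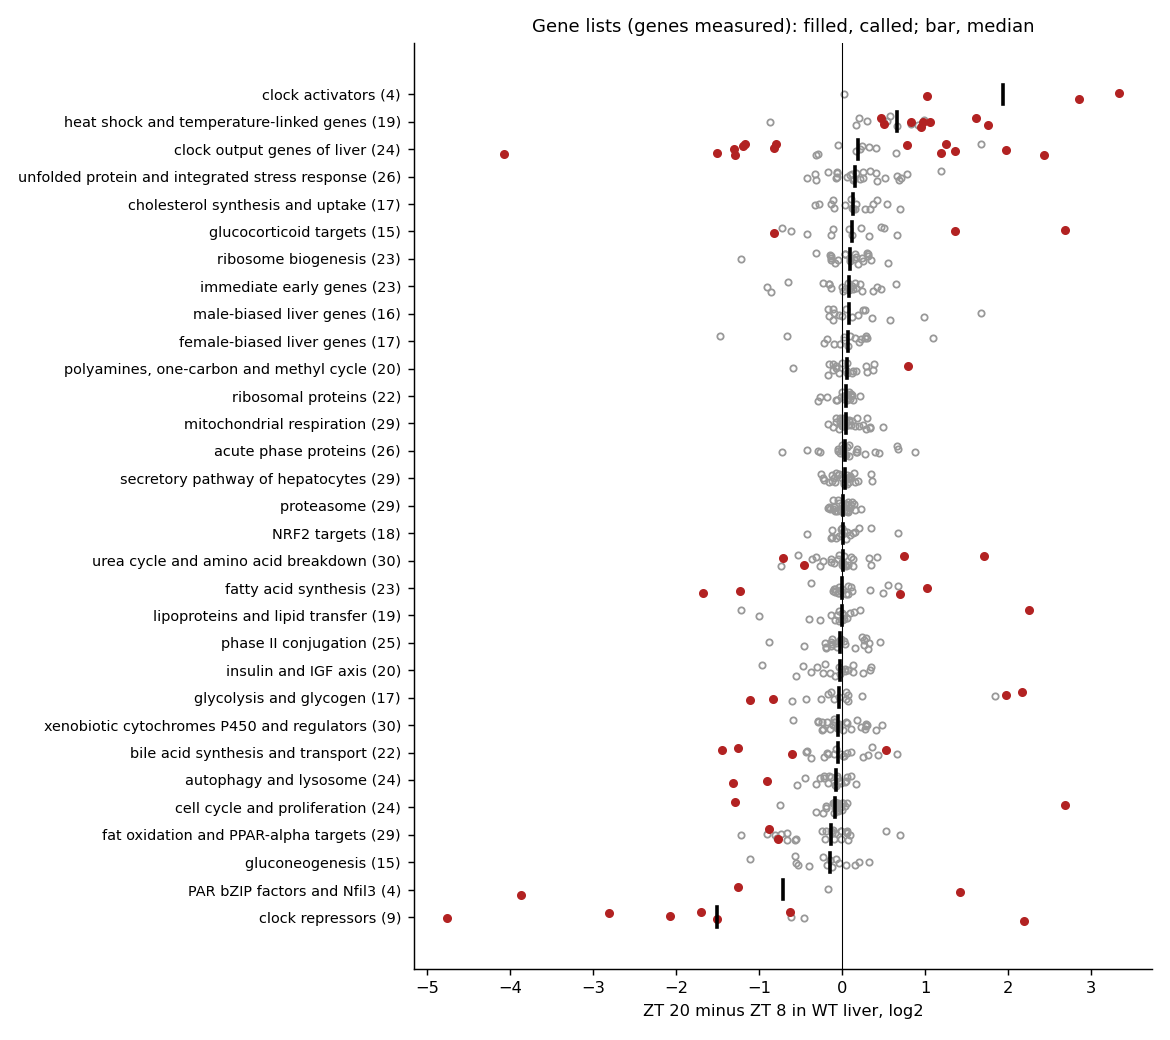
Each row is a gene list with the number of genes measured, and the x axis is the difference between ZT 20 and ZT 8 in WT liver in log2. Filled points are called genes, open points are not called, and the black bar is the median, which runs from -1.51 for the clock repressors to 1.94 for the clock activators, with heat shock genes next at 0.67.

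Hepatocyte markers were bright in every array. The mean level of 11 of them was 12.41 to 12.49 in the ZT 8 arrays and 12.23 to 12.37 in the ZT 20 arrays, without overlap. None of the 11 was called, and 9 of them were below 0, where 58.2% of all genes were. The largest difference among them was that of Pck1 (-1.11), followed by Apoa1 (-0.13), and the median of the list was -0.044. The mean level of the list thus leans on Pck1. Of 10 cell type lists without a call by limma, which hold 109 genes, 3 genes had an unadjusted p under 0.05, where 9.86% of all genes did. Ranges of the mean level at ZT 8 and ZT 20 overlapped for Kupffer cell markers (7.34 to 7.75 and 7.30 to 7.98) and endothelial markers (8.00 to 8.25 and 8.05 to 8.10). Those of stellate cells overlapped only at their edges, with 7.406 to 7.666 at ZT 8 and 7.300 to 7.408 at ZT 20. Skeletal muscle markers had 5.99 to 6.19 and 5.87 to 6.00. The single call in a cell type list was Tfrc, the transferrin receptor, which hepatocytes also express, where 1.55% of all genes were called. Tfrc was at 5.99, 5.97 and 5.93 at ZT 8 and 6.65, 7.22 and 6.57 at ZT 20 (difference 0.85, SE 0.21, adjusted p = 0.033). Tfrc was called in 13 of 21 alternative settings, and not without ZT 8 replicates 1, 2 or 3 or ZT 20 replicates 1 or 2 (adjusted p 0.055 to 0.26). In a whole tissue, fewer cells of a type and less RNA per cell cannot be told apart.

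No array stood apart in the sex-linked genes. Xist was at 5.26, 5.58 and 5.09 at ZT 8 and 5.53, 5.44 and 5.50 at ZT 20, and Eif2s3y, of the Y chromosome, was at 7.95, 7.87 and 7.82 at ZT 8 and 7.57, 7.74 and 7.45 at ZT 20. All 3 Y-linked genes lay higher in every ZT 8 array than in any ZT 20 array, without a call: Kdm5d was at 7.15, 6.91 and 7.09 at ZT 8 and 6.67, 6.57 and 6.71 at ZT 20 (difference -0.40, SE 0.13, adjusted p = 0.13) and Uty at 7.58, 7.23 and 7.48 at ZT 8 and 6.85, 7.07 and 7.11 at ZT 20 (difference -0.42, SE 0.13, adjusted p = 0.15). Their part in the other results was not tested, beyond the fit with Xist as a covariate.

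Set in the whole WT day, the called genes had their extremes around the pair of times compared. Of the 98 that were higher at ZT 20, 37 had their highest WT mean at ZT 20, 32 at ZT 0, 23 at ZT 16 and 6 at ZT 4, and 72 had their lowest at ZT 8 and 24 at ZT 12. Of the 246 that were lower, 204 had their highest mean at ZT 8 and 31 at ZT 12, and 146 had their lowest at ZT 20 and 68 at ZT 0. The choice of ZT 20 and ZT 8 fixes much of this, so it is a description. Dbp was lowest at ZT 0 (5.71) and highest at ZT 8 (10.37), while Nr1d1 was already at 9.66 at ZT 4 against 9.94 at ZT 8. Hsp90aa1 was at 9.67 at ZT 16, close to its 9.71 at ZT 20, and Cdkn1a was at 6.53 at ZT 16 and 8.32 at ZT 20. Gys2 still stood at 11.13 at ZT 16 and at 10.22 at ZT 20, with its lowest mean at ZT 0 (9.81).

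**Figure D4:**
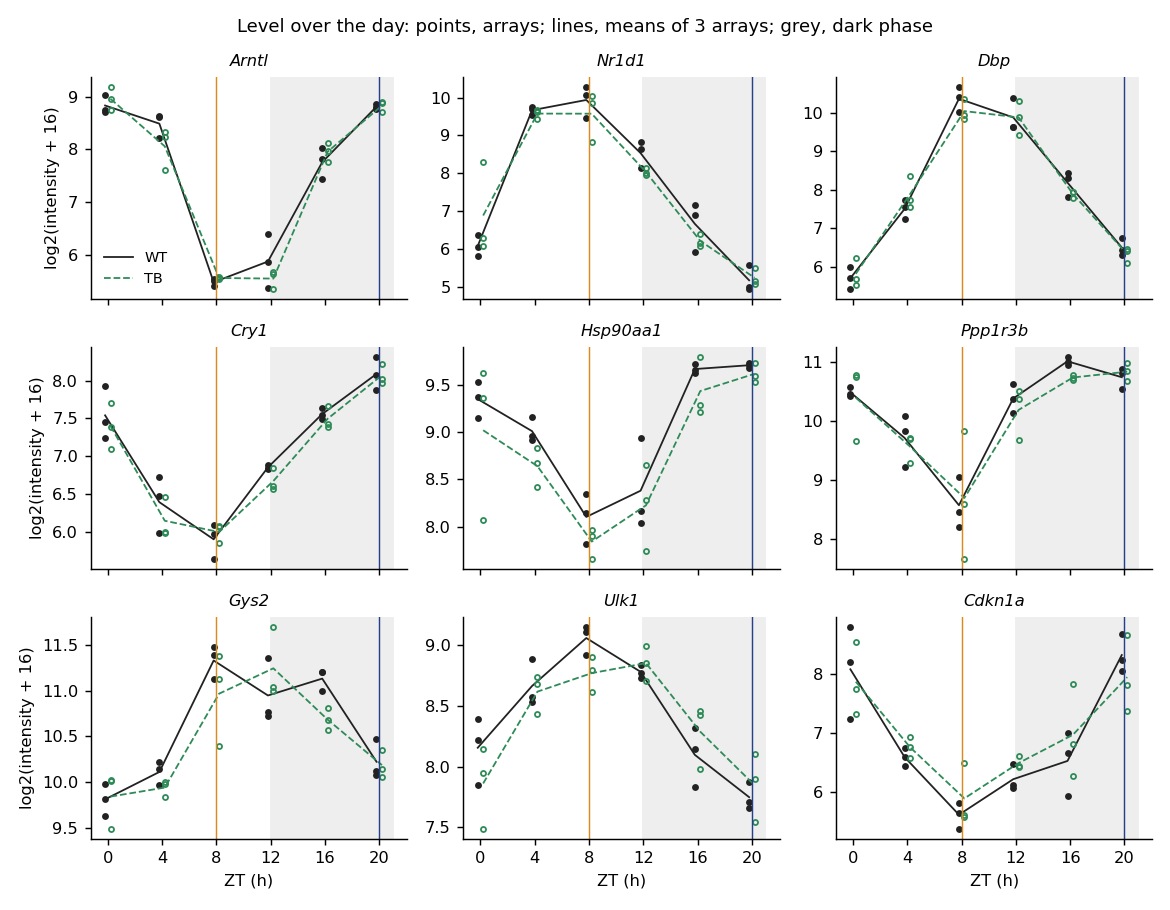
Level in log2(intensity + 16) on the y axis against ZT in hours on the x axis for 9 genes, with points for arrays and lines for means of 3 arrays, WT in black and TB in green and dashed. Vertical lines mark ZT 8 and ZT 20 and the grey area is the dark phase; Arntl, Cry1, Hsp90aa1, Ppp1r3b and Cdkn1a are near their lowest at ZT 8, and Nr1d1, Dbp, Gys2 and Ulk1 near their highest.

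The same contrast in TB liver, on arrays of its own, gave the same sign for most of these genes. There 370 genes (1.67%) were called, and 155 were called in both genotypes, which is 45.1% of the WT calls and 41.9% of the TB calls. Of the 344 WT calls, 336 (97.7%) had the same sign in TB, against 62.0% of all genes, and these were all 98 that rose and 238 of the 246 that fell. Across all genes the WT and TB differences correlated at r = 0.576, over genes, which are not independent. Arntl differed by 3.27, SE 0.19, adjusted p = 9.8e-13 in TB, Nr1d1 by -4.32, SE 0.37, adjusted p = 6.8e-09 and Dbp by -3.71, SE 0.24, adjusted p = 1.4e-11. In TB as in WT, Per3 (-1.56), Cry1 (2.08), Hsp90aa1 (1.78), Ulk1 (-0.92) and Ppp1r3b (2.14) were called with the same sign. The median TB difference was 0.98 for the 98 genes that rose in WT and -0.42 for the 246 that fell, and since these genes were chosen on their WT values, a smaller TB value is no sign of a weaker rhythm.

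The test of the difference between the genotypes, (ZT 20 minus ZT 8 in WT) minus (ZT 20 minus ZT 8 in TB), called no gene by limma. At an unadjusted p under 0.05 it gave 749 genes, and the lowest adjusted p was 1. Among the 6 genes with the smallest p was Fasn, whose WT arrays are given above and whose TB arrays were 9.71, 9.80 and 9.98 at ZT 8 and 11.26, 10.79 and 11.32 at ZT 20. Fasn was called in TB (1.29, SE 0.22, adjusted p = 0.00072) and not in WT, and the difference between them was -1.21, SE 0.31, unadjusted p = 0.00048, adjusted p = 1. The 23 genes of fatty acid synthesis had a median difference of 0.61 in TB and of 0.0045 in WT, given without a test. Dgkq, a diacylglycerol kinase, was called in WT (-0.56, adjusted p = 0.024) and had 0.19 in TB, with a difference of -0.75, SE 0.19, unadjusted p = 0.00048, adjusted p = 1. Dgkq was called in 13 of 21 alternative settings, and not without ZT 8 replicates 1 or 3 or ZT 20 replicates 1 or 3 (adjusted p 0.11 to 0.18). Tmigd1 (0.69, SE 0.16, unadjusted p = 0.00018, adjusted p = 1) and Cryga (0.90, SE 0.22, unadjusted p = 0.00027, adjusted p = 1), both dim, were the other 2 beside Naip5 and Nav2.

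**Figure D5:**
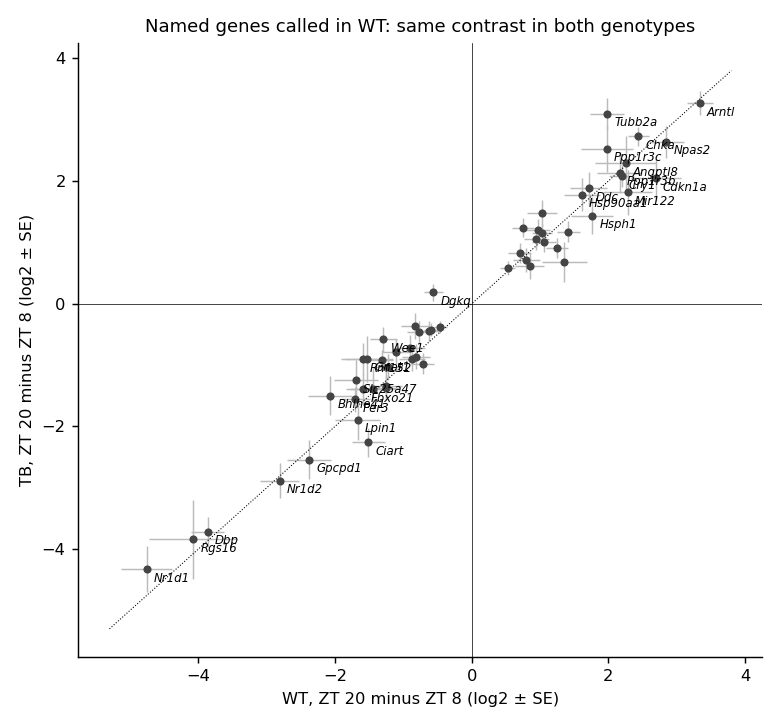
Each point is 1 of 56 named genes called in WT, with its difference between ZT 20 and ZT 8 in log2 in WT on the x axis and in TB on the y axis, each with bars of 1 SE. The dotted line marks equal differences; the points run along it from Nr1d1 (-4.75 and -4.32) to Arntl (3.33 and 3.27), and Dgkq is the 1 plotted gene with opposite signs.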

How the data were processed

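RNA of mouse liver was measured on 36 Affymetrix arrays, 3 in each of 12 groups of genotype and time, of which 6 form the comparison. The deposited values are linear intensity per probe set, made by the authors with Affymetrix Expression Console 1.1.1 and PLIER 2.0, per the submitters' processing notes, while their settings, and how arrays were normalized, were not given in the sources used here. Of 41345 probe sets, 25335 were listed in the platform annotation, 23521 with 1 gene symbol and 1814 with several, and the other 16010 had no symbol. The RefSeq table of GRCm38.p6 held the Entrez identifier of 23328 of the probe sets with 1 symbol. The probe set with the highest mean over all arrays stood for a gene, which left 22180 genes. Values were used as log2(intensity + 16) without a filter, and 23.0% of all values were under 16.

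Differences came from limma 3.58.1 in R 4.3.3 (lmFit, eBayes, 12 group means, two-sided), with Benjamini-Hochberg adjustment over all 22180 genes and a threshold of 0.05, and the scripts were tested on simulated data. Precision is limited by the number of arrays, 3 a group.

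The named genes are the 12 with the largest difference each way among called genes without overlap, all clock genes, up to 5 members per pathway list by smallest p, the 6 smallest p of the genotype difference, sex-linked genes and up to 2 members per cell type list, without predicted gene models. Further members of a list, the other calls of the clock output and heat shock lists, and the genes so marked were named after their values were seen. The members, the 32 pathway and 11 cell type lists and the motifs were chosen with earlier results of these data known. List genes that were not measured and the altered genes of TB are not analysed here. The 21 alternative settings covered pseudocount, scaling, filter, probe sets, replicate block, array weights, variance model, covariate, array sets, arrays in the fit and each array left out.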

Additional observations from a re-analysis of the deposited data

Results flagged for a closer look

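In 48 of 22180 genes (0.216%) the arrays of ZT 20 all lay on one side of those of ZT 8 in WT and all on the other side in TB, where 1071 (4.83%) lay apart in the same direction in both. Among the genes named by rule there were 2, Naip5 and Nav2, both named for a small p of this same difference, so their opposite directions are a description. Naip5, an intracellular sensor of bacterial flagellin, was at 6.12, 6.33 and 6.08 at ZT 8 and 5.91, 5.65 and 5.42 at ZT 20 in WT and at 5.80, 5.80 and 5.97 at ZT 8 and 6.01, 6.54 and 6.62 at ZT 20 in TB. All 3 WT arrays of ZT 20 lay below those of ZT 8, and all 3 TB arrays of ZT 20 lay above, with a difference between the genotypes of -1.05 (SE 0.22, unadjusted p = 5.3e-05, adjusted p = 1, limma).

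Nav2, a neuron navigator protein, was at 7.90, 7.79 and 8.21 at ZT 8 and 7.52, 7.66 and 7.47 at ZT 20 in WT and at 6.97, 7.33 and 6.87 at ZT 8 and 7.69, 7.49 and 7.52 at ZT 20 in TB, again lower in WT and higher in TB at ZT 20. The difference between the genotypes was -0.93 (SE 0.22, unadjusted p = 0.00021, adjusted p = 1, limma). Neither passed the adjustment over all genes, and neither was called within WT (-0.52, adjusted p = 0.11 and -0.42, adjusted p = 0.26).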

How the results depend on the processing

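The count of 344 calls in WT came to 962 with array weights, 537 with the array set as a block, 223 with Xist as a covariate and 219 with only the 6 arrays compared. With each of the 6 arrays left out in turn it ranged from 150 to 414. In the other settings it lay between 242 (median centring) and 494 (only the 24 arrays of the larger set). Without WT ZT 12 replicate 3, an array with skeletal muscle genes outside the comparison, it was 385. All 344 genes kept their sign in the 21 settings, 103 were called in every one, and of 74 called genes that are named 45 were. Between replicate 2 of ZT 8 and replicate 2 of ZT 20, the arrays of the smaller set, 343 of the 344 had the sign of the full comparison. In 343 of the 344 the arrays of the times did not overlap, which fixes the sign for any pair of arrays. It also fixes the sign where an array is left out, so neither is a separate check. The size of a difference did vary with the array set for some named genes. Slc2a2 differed by -1.16 when taken from the larger-set arrays and by -0.16 between the replicates 2. In the same order, Rgs16 had -4.80 and -2.62, and Bhlhe41 -2.52 and -1.17. Arntl hardly varied, with 3.34 and 3.32. Ppp1r3c, with 1.71 and 2.51, and Abcg8, with -1.34 and -1.65, were larger between the replicates 2. The difference between the genotypes had 0 calls by limma in every setting, with 492 to 2819 genes at an unadjusted p under 0.05.

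Deviations from the group means of same-numbered arrays correlated at 0.289, 0.215 and -0.036 in WT and at 0.118, 0.34 and 0.237 in TB. Not every WT pair was over 0.1, so the WT numbers were not taken as a pairing, although 4 of the 6 WT arrays and 5 of the 6 TB arrays correlated best with their own number. In both genotypes, replicate 2 of ZT 8 and of ZT 20 belonged to the smaller set and replicates 1 and 3 to the larger. For replicate 2, a shared number and a shared set therefore cannot be told apart. With the replicate block the count was 331 over 36 arrays and 353 over the 6 compared. In TB, where the block was added after seeing the data, 370 calls became 357 over 36 arrays and 569 over the 12 arrays of both times, with 151 and 159 of them among the 344. Precision is limited by 3 arrays per time, and dim genes, under 16 intensity units in 23.0% of values, have understated differences. The cause of the shifts in count was not tested.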
